A study of Rattus norvegicus with 48 samples.

Results

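The genes described here code for acute-phase and secreted defence proteins: Orm1, Hp and Cp on the plasma side, and Slpi, Lcn2 and Ptx3 among proteins that cells release against microbes and tissue damage. They were chosen by the differences of Tat and Tat-Cocaine from Control, so those differences are given below without a test. The list was drawn up around Orm1 and Slpi, at places 1 and 4 of 15890 genes by log2 rise with Tat. The list held 7 genes, of which 6 were found among the 30211 genes of the deposited table, and all 6 had at least 0.5 CPM in at least 3 libraries and were among the 15890 genes tested. The seventh, Serpina3n, was not analysed here.

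Acute-phase proteins are made in quantity when cytokines such as interleukin 6 and interleukin 1 reach a cell, through the factors STAT3, C/EBP and NF-κB. The liver is their main source, while in brain tissue astrocytes and microglia are known to make several of them. Orm1 codes for orosomucoid (alpha-1-acid glycoprotein), a carrier of lipophilic compounds in plasma. Hp codes for haptoglobin, which binds free haemoglobin, and Cp for ceruloplasmin, a copper-containing ferroxidase. Lcn2 (lipocalin-2) withholds iron from bacteria by binding their siderophores, Slpi is a secreted inhibitor of leukocyte proteases such as elastase, and Ptx3 is a long pentraxin that binds microbes and complement.

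RNA-seq was done on primary cortical cultures of Sprague-Dawley rat fetuses (day 18) after 3 weeks in vitro, in 16 groups of 3 libraries, 48 in all. Control cultures received neither Tat, cocaine nor a compound. Other groups received cocaine (25 µM, 24 h), the HIV-1 protein Tat 1-86 (6 ng/mL, 48 h), or both, with cocaine added after the Tat exposure for a further 24 h (Tat-Cocaine). Each of 4 compounds was used in cultures without Tat, in Tat cultures and in Tat-Cocaine cultures: the itaconate ester 4-octyl itaconate (4OI, 250 µM), the kinase inhibitor Amlexanox (25 µM), the EZH2 inhibitor Tazemetostat (3 µM) and the potassium channel blocker Senicapoc (1 µM). The cultures are mixed, although the labels name the cell type as neuron, and no group carries a genetic change. Whether the 3 libraries of a group came from separate dams or preparations is not stated, so the p-values measure the spread between these samples, which may be technical. In a mixed culture, fewer cells of a type and less RNA per cell cannot be told apart.

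Values are the deposited CPM (counts per 1 M reads after TMM scaling), from 17.5 to 29.1 M reads on genes per library, where 1 read was worth 0.0334 to 0.0583 CPM. Neuronal (Snap25, Syt1), astrocytic (Gfap, Aqp4) and microglial (Aif1, Csf1r) markers were all present. Markers of the other known sources of these proteins were low or absent in part only. Of 4 hepatocyte markers Apoa1 and Apoa2 reached at most 0.221 and 0.216 CPM, while Alb reached 1.89 and Cps1 6.95 CPM and neither was at 0 in any library. Of 5 neutrophil markers Mpo reached 0.252, Ngp 0.121, Mmp8 0.0507 and Elane 0.0487 CPM, and Camp 2.18 CPM. Of 3 choroid plexus markers Kl reached 0.0973, Ttr 7.26 and Folr1 70.04 CPM. Group values are the mean ± SD of n = 3 libraries, and log2 fold changes are differences of log2(CPM + 0.5) ± SE, which understates changes of genes near 0. FDR is the Benjamini-Hochberg adjusted p of limma over 15890 genes, with 0.05 as the threshold.

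The promoters of 4 of the 6 genes were found in RefSeq (build GRCr8, from 250 bases before to 50 bases after the start of the gene), and are printed because these genes were high together in every group given Tat. They were searched on both strands for STAT (TTCNNNGAA), C/EBP (TTGCNNAA), NF-κB, Nrf2 (TGACNNNGC) and the box of basal promoters (TATAAA), and matches are in capitals. For NF-κB 3 variants of 10 letters were used, each beginning with GGG, ending with CC and holding TT at a fixed place between. Stretches of 10 letters with the same ends but other letters between, as in the Orm1 and Lcn2 windows, were not counted. Orm1 lies at chr5:81788259-81788558 (+), Lcn2 at chr3:36081731-36082030 (-), Ptx3 at chr2:152797313-152797612 (+) and Cp at chr2:104368420-104368719 (+).
Orm1: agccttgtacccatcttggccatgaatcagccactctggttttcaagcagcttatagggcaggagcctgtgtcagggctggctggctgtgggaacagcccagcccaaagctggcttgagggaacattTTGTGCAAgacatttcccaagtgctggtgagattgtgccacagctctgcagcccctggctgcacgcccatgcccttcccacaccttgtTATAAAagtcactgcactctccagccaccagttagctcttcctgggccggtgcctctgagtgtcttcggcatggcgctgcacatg
Lcn2: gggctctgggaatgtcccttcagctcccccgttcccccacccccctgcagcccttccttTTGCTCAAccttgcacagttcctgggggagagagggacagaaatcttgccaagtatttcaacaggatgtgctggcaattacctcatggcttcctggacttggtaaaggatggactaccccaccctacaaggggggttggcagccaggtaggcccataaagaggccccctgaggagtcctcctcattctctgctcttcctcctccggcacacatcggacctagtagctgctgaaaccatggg
Ptx3: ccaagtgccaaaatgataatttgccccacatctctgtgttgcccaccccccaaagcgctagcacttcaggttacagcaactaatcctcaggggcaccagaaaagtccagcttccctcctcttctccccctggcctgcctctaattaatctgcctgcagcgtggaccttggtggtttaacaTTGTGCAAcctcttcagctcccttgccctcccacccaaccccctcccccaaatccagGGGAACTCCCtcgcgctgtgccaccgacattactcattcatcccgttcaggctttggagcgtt
Cp: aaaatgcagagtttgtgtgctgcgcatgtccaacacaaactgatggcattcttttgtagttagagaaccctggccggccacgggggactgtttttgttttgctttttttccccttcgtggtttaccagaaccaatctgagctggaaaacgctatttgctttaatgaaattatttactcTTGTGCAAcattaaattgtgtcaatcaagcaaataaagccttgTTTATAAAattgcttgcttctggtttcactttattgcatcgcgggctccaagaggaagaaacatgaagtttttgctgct
Each of the 4 windows held a C/EBP match, beginning 123 bases before the start in Orm1, 191 in Lcn2, 70 in Ptx3 and 72 in Cp, and the motif was found in 10.6% of the 33469 rat promoters of the same length. The Ptx3 window also held a match to 1 NF-κB variant 13 bases before the start, a motif found in 2.18% of promoters. TATAAA matches lay 35 bases before the start in Orm1 and at 29 (reverse strand) and 27 bases in Cp, where they overlap, and that motif was found in 14.2% of promoters. STAT, Nrf2 and the other NF-κB variants, found in 8.87%, 12.1%, 1.53% and 0.111% of promoters, were not in these windows. Other forms of NF-κB site were not searched for, so the search does not show that a window lacks one.

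In Control cultures Orm1 was close to the detection limit, at 0.422, 1.18 and 0.272 CPM in the 3 libraries. In Tat cultures it stood at 686, 499 and 298 CPM, and in Tat-Cocaine cultures at 53.9, 235 and 678 CPM. The log2 differences from Control were 8.78 and 7.60, the highest of the 15890 genes in both cases. Tat-Cocaine libraries were unlike each other, with replicate 1 the lowest of the 3 for all 6 genes.

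Slpi was at 0, 0.809 and 0.227 CPM in Control, where the first library held no read. It was at 57.7, 109.7 and 116 CPM with Tat and 34.8, 96.2 and 75.6 CPM with Tat-Cocaine, log2 differences of 6.86 and 6.35. Lcn2, in contrast, was well expressed in cultures without treatment, at 94.7, 315 and 32.95 CPM in Control. With Tat it reached 13561, 12755 and 8461 CPM and with Tat-Cocaine 3676, 6585 and 12511 CPM. Its transcripts made up 0.143 to 1.33% of all reads on genes in the 30 libraries given Tat, and 0.00128 to 0.0424% in the 18 without.

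Ptx3 was at 11.4, 28.9 and 6.49 CPM in Control, 314, 393 and 231 CPM with Tat and 114, 227 and 324 CPM with Tat-Cocaine. Cp, the member with the smallest relative difference, was at 606, 1002 and 832 CPM in Control, 4589, 3515 and 2207 CPM with Tat and 1335, 2015 and 4871 CPM with Tat-Cocaine. Hp was low throughout, at 1.46, 1.62 and 0.976 CPM in Control and 15.7, 16.05 and 6.90 CPM with Tat. In Tat-Cocaine cultures Hp was at 1.58, 6.49 and 16.2 CPM, so that replicate 1 lay within the range of Control. The libraries of Tat lay above all those of Control for 6 of the 6 genes, as they did for 19.4% of all genes tested, and those of Tat-Cocaine for 5 of 6, against 15.1% of all genes. These libraries chose the genes, and nothing is read from the counts. Tat-Cocaine libraries overlapped those of Tat for all 6 genes, with log2 differences of -1.19 to -0.48, and 0.0189% of all genes differed between these groups.

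**Figure D1:**
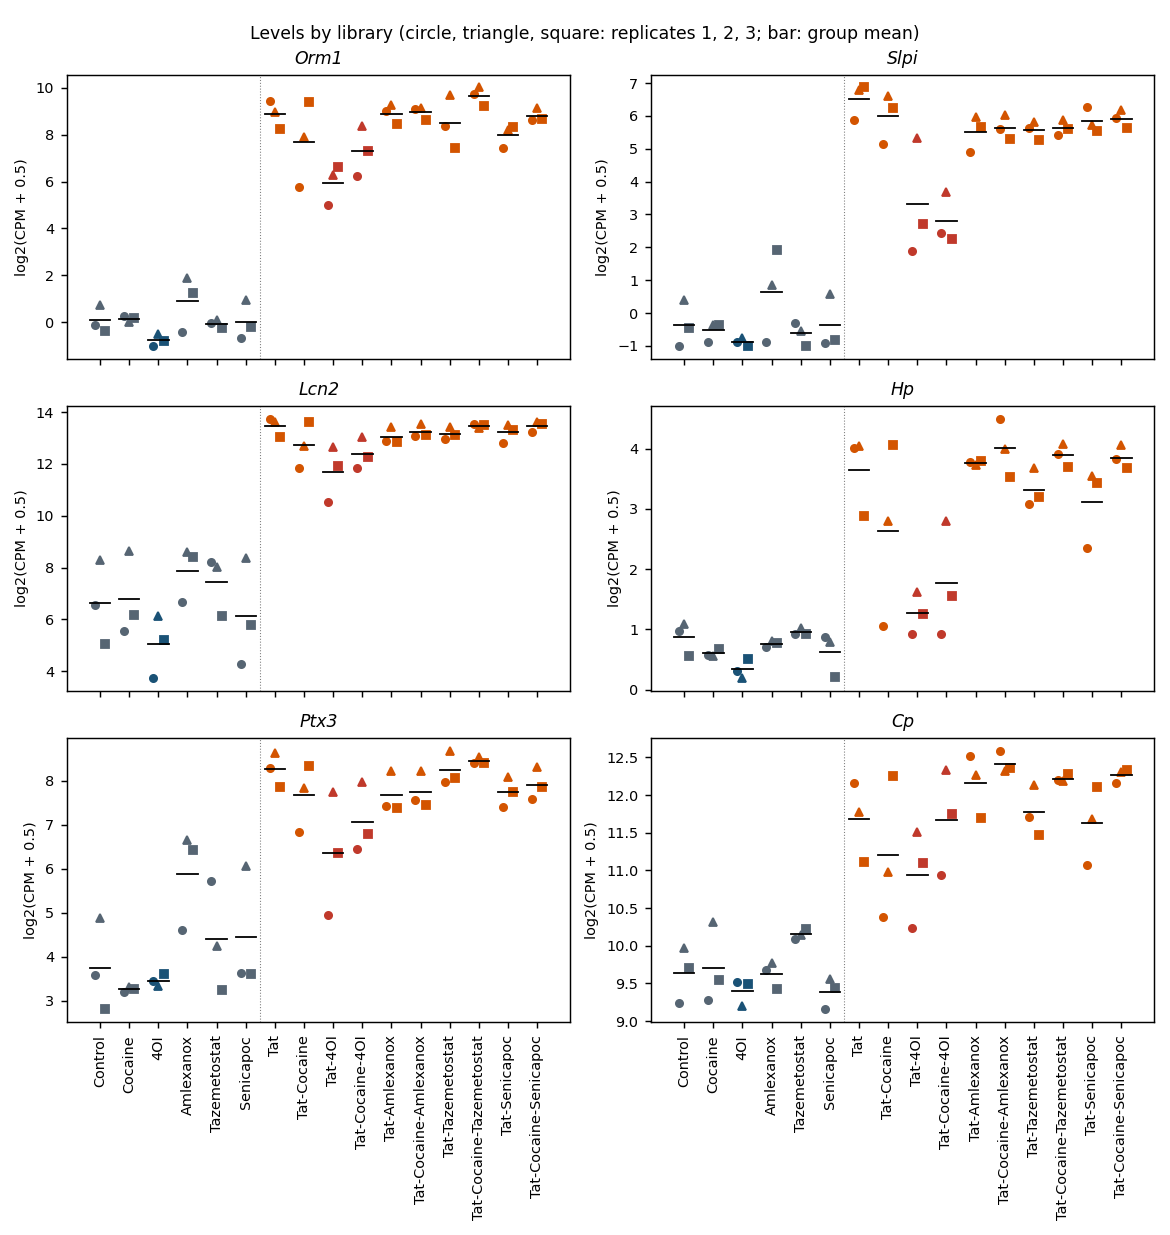
Level of each gene as log2(CPM + 0.5) in every library of the 16 groups, with symbols for replicates 1 to 3 and a bar for the mean of each group; groups left of the dotted line received no Tat, orange marks groups with Tat, red those with Tat and 4OI, dark blue 4OI alone and grey the others without Tat. Orm1 was at most 3.18 CPM in the 18 libraries without Tat and at least 31.1 CPM in the 30 with it, and the lowest Tat library of each of the 6 genes was Tat-4OI replicate 1.

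The Tat response was next followed in the cultures given 4OI, Amlexanox, Tazemetostat or Senicapoc. Their libraries were not in the comparisons that chose the genes, but the list was drawn up with earlier results of these data known. Adding Tat to a compound raised Orm1, Slpi, Lcn2, Ptx3 and Cp with each of the 4 compounds and Hp with 3 of them. In all, 23 of 24 differences passed the test, all upward. Over all genes, 3.08% passed upward with 4OI, 22.6% with Amlexanox, 10.4% with Tazemetostat and 10.8% with Senicapoc. Adding Tat and cocaine together raised all 6 genes with each compound, 24 of 24 differences, where 6.96%, 25.1%, 21.0% and 20.6% of all genes passed upward for 4OI, Amlexanox, Tazemetostat and Senicapoc. The 4 compound groups serve as the control in both sets, so the sets are not independent of each other. Here leaving out any one library kept 21 to 23 of the 24 calls with Tat and 23 to 24 with Tat and cocaine.

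Orm1 rose by 6.71 ± 0.62 (FDR 1.26e-08) on the log2 scale with 4OI, from 0, 0.216 and 0.0834 CPM to 31.1, 76.2 and 98.5 CPM. The rise was 7.99 ± 0.62 (FDR 7.69e-11) with Amlexanox, 8.55 ± 0.62 (FDR 2.11e-11) with Tazemetostat and 7.94 ± 0.62 (FDR 4.64e-11) with Senicapoc. In each of these 4 comparisons, and in the 4 with cocaine as well, the log2 fold change of Orm1 was the largest of the 15890 genes. Slpi rose by 4.20 with 4OI (FDR 1.6e-05), 4.87 with Amlexanox (FDR 5e-07), 6.18 with Tazemetostat (FDR 3.86e-09) and 6.22 with Senicapoc (FDR 4.02e-09). The 4OI libraries held under 3 reads of Slpi each, at 0.0368, 0.0862 and 0 CPM, and the size of that change depends on the constant added before the logarithm: it was 6.10 with 0.1 CPM and 3.36 with 1 CPM. The same holds for Orm1, whose change with 4OI was 8.42 with 0.1 CPM.

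Lcn2 rose by 6.66 ± 0.79 (FDR 9.79e-07) with 4OI, 5.17 with Amlexanox, 5.72 with Tazemetostat and 7.08 with Senicapoc. Its starting level varied widely within groups, as in Senicapoc cultures at 19.1, 327 and 55.1 CPM. Of the 6 groups without Tat, 5 had their highest Lcn2 in the library numbered 2. The same held in 5 for Orm1, 4 for Ptx3 and Cp and 3 for Slpi and Hp. Of the 10 groups with Tat, library 2 was highest in 9 for Ptx3, 8 for Slpi, 7 for Lcn2 and Hp, 6 for Orm1 and 3 for Cp. Ptx3 rose by 2.89 ± 0.62 (FDR 0.00408) with 4OI, 1.79 ± 0.62 (FDR 0.0233) with Amlexanox, 3.83 ± 0.62 (FDR 4.72e-05) with Tazemetostat and 3.31 ± 0.62 (FDR 0.000339) with Senicapoc. The Amlexanox cultures started from a higher level of Ptx3, at 23.8, 99.7 and 85.3 CPM, and reached 171, 298 and 167 CPM with Tat, so that the groups did not overlap. The Amlexanox call for Ptx3 was lost without Amlexanox replicate 1 (1.14, FDR 0.16) or Tat-Amlexanox replicate 2 (1.52, FDR 0.101). With cocaine as well the rise in Amlexanox cultures was 1.85 ± 0.62 (FDR 0.0169), and that call was lost without Amlexanox replicate 1 (1.21, FDR 0.132) or Tat-Cocaine-Amlexanox replicate 2 (1.61, FDR 0.0712). With 4OI the calls for Ptx3 and Cp were lost without Tat-4OI replicate 2 (2.19, FDR 0.0841 for Ptx3 and 1.26, FDR 0.1 for Cp).

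Cp rose by 1.54 ± 0.36 (FDR 0.0075) with 4OI, 2.54 with Amlexanox, 1.62 with Tazemetostat and 2.24 with Senicapoc. The Tazemetostat cultures had the highest Cp of the groups without Tat, at 1085, 1135 and 1193 CPM, and went to 3344, 4478 and 2844 CPM with Tat. Hp rose by 3.00 ± 0.43 (FDR 9.12e-06) with Amlexanox, 2.36 ± 0.43 (FDR 0.000252) with Tazemetostat and 2.48 ± 0.43 (FDR 0.000141) with Senicapoc. With 4OI it went from 0.736, 0.647 and 0.917 CPM to 1.39, 2.58 and 1.90 CPM. The libraries did not overlap, as for 15.7% of all genes, but the difference of 0.93 ± 0.43 (FDR 0.227) missed the threshold, with a 95% interval of 0.05 to 1.81. With Tat and cocaine Hp passed the test in 4OI cultures too, at 1.43 ± 0.43 (FDR 0.0274), from libraries at 1.40, 6.501 and 2.43 CPM. That call was lost without Tat-Cocaine-4OI replicate 2 (0.90, FDR 0.307) and without 4OI replicate 1, 2 or 3 (FDR 0.0806, 0.0733 and 0.0593), and in a fit to these 2 groups alone (FDR 0.136).

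**Figure D2:**
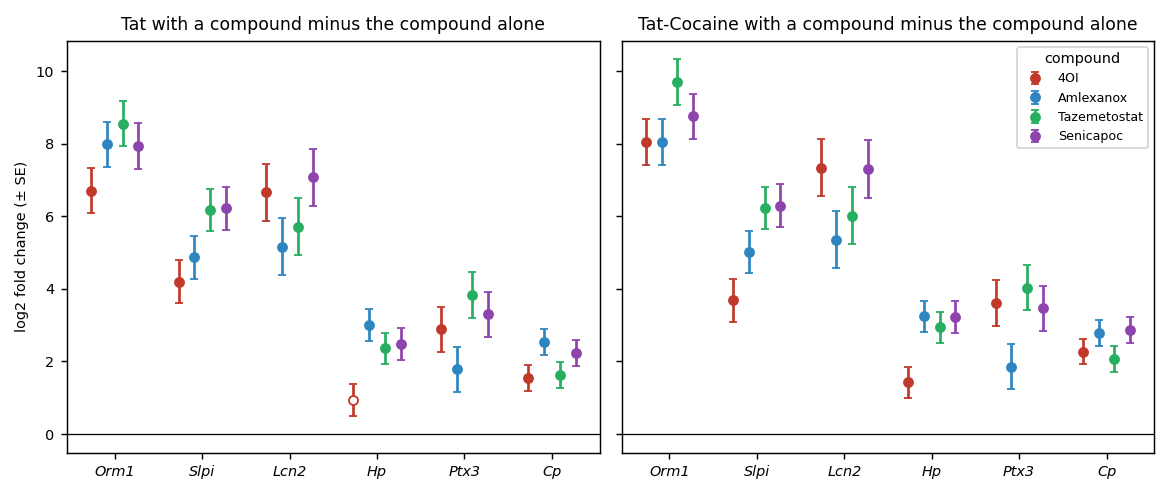
Log2 fold change ± SE of each gene when Tat (left) or Tat and cocaine (right) was added to cultures given the same compound, with filled points for FDR under 0.05 in limma and open points otherwise. All differences are above 0, from 0.93 for Hp with 4OI to 9.70 for Orm1 with cocaine and Tazemetostat, and the open point is Hp with 4OI.

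The size of the Tat response was compared between compounds as a difference of differences, in 6 pairs of compounds for 6 genes. Hp passed the test for 4OI against Amlexanox, where its rise with 4OI was smaller, with a log2 difference of -2.07 ± 0.61 (FDR 0.0322), and 6.90% of all genes passed downward there. The call for Hp was lost when 1 library was left out in 8 cases (4OI replicates 1 and 3, Tat-4OI replicates 1 and 3, Amlexanox replicates 2 and 3, Tat-Amlexanox replicates 1 and 2), with log2 differences of -2.09 to -1.90 and FDR up to 0.11. The other 35 differences missed the threshold. Among them were Ptx3 for Amlexanox against Tazemetostat at -2.04 ± 0.88 (FDR 0.254) and Slpi for 4OI against Senicapoc at -2.02 ± 0.83 (FDR 0.562). The 95% interval for Slpi was -3.70 to -0.34. Each 4OI library held under 3 reads of Slpi, so this difference depends on the constant added before the logarithm. The ratio of its mean CPM with Tat to that without was 398 with 4OI and 158 with Senicapoc.

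The compounds were then compared with each other within cultures given Tat, and within cultures given Tat and cocaine. Cultures given 4OI had less Slpi and Hp than those given any of the other 3 compounds, and less Orm1 in 4 of 6 comparisons. Of 36 differences between 4OI and another compound, 18 passed the test, all lower with 4OI (Slpi 6, Hp 6, Orm1 4, Ptx3 1, Cp 1, Lcn2 0). Over all genes, 6.82%, 9.72% and 4.15% were lower with 4OI than with Amlexanox, Tazemetostat and Senicapoc in Tat cultures. The shares were 4.97%, 13.9% and 7.77% with cocaine. Of the 36 differences among Amlexanox, Tazemetostat and Senicapoc none passed in limma, 0 had an unadjusted p under 0.05, and the log2 differences ran from -0.70 to 0.92, with 95% intervals reaching from -1.97 to 2.19. Over all genes, the shares passing in either direction were 0%, 0% and 0.120% with Tat for Amlexanox against Tazemetostat, Amlexanox against Senicapoc and Tazemetostat against Senicapoc, and 0.396%, 0% and 0.0189% with cocaine. In fits to only the groups compared, 8 of the 18 calls with 4OI were lost: those of Slpi, Orm1 and Ptx3 against Tazemetostat, Slpi and Cp against Amlexanox and Slpi against Senicapoc with Tat, and those of Hp against Amlexanox and Senicapoc with Tat and cocaine (FDR 0.0511 to 0.165), and 1 was gained, Ptx3 in Tat-Cocaine-Amlexanox against Tat-Cocaine-Tazemetostat (-0.70, FDR 0.0433). Border macrophage markers were lower with 4OI in all 6 comparisons too, with a summed level of 39.2 to 180.3 CPM in Tat-4OI cultures and 236 to 345 CPM in Tat-Amlexanox cultures, and their part in these differences was not tested.

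Slpi was at 3.24, 39.7 and 6.06 CPM in Tat-4OI cultures, of which replicate 2 lay within the range of Tat-Amlexanox and Tat-Tazemetostat. It was at 29.1, 61.95 and 49.8 CPM in Tat-Amlexanox, 48.8, 56.1 and 38.1 CPM in Tat-Tazemetostat and 77.1, 51.8 and 46.4 CPM in Tat-Senicapoc cultures. The differences were -2.19 ± 0.59 (FDR 0.012), -2.26 ± 0.59 (FDR 0.0086) and -2.53 ± 0.59 (FDR 0.00475). All 3 calls were lost without Tat-4OI replicate 1, at -1.48, -1.55 and -1.83 with FDR of 0.137, 0.122 and 0.0809. Those against Amlexanox and Tazemetostat were also lost without Tat-4OI replicate 3 (-1.89 and -1.96), and without Tat-Amlexanox replicate 2 (-1.96) or Tat-Tazemetostat replicate 2 (-2.13), with FDR of 0.0615 to 0.0724.

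With cocaine, Slpi in 4OI cultures was at 4.91, 12.5 and 4.29 CPM. The lowest library of the other compounds was at 38.7 CPM, so the groups did not overlap. The differences were -2.85 ± 0.59 (FDR 0.00153) against Amlexanox, -2.83 ± 0.59 (FDR 0.000616) against Tazemetostat and -3.12 ± 0.59 (FDR 0.000328) against Senicapoc. These 3 calls were kept without any one of the libraries.

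Hp in Tat-4OI cultures, at 1.39, 2.58 and 1.90 CPM, lay below each library of the other 3 compounds with Tat. Tat-Amlexanox cultures had the closest replicates, at 13.2, 12.7 and 13.4 CPM, and the Tat-Tazemetostat and Tat-Senicapoc means were 9.66 ± 2.36 and 8.69 ± 3.56 CPM. The differences were -2.50 ± 0.43 (FDR 0.000188), -2.05 ± 0.43 (FDR 0.00177) and -1.84 ± 0.43 (FDR 0.00534). With cocaine, Hp in 4OI cultures stood against means of 16.2 ± 5.48, 14.5 ± 2.01 and 14.04 ± 1.93 CPM, with differences of -2.25 ± 0.43 (FDR 0.000775), -2.14 ± 0.43 (FDR 0.000485) and -2.09 ± 0.43 (FDR 0.000974). All 6 calls for Hp were kept without any one of the libraries.

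Orm1 was at 68.6 ± 34.4 CPM in Tat-4OI cultures, against 489 ± 133 in Tat-Amlexanox, 445 ± 343 in Tat-Tazemetostat and 259.8 ± 78.1 in Tat-Senicapoc. The differences were -2.94 ± 0.62 (FDR 0.00186), -2.55 ± 0.62 (FDR 0.00567) and -2.02 ± 0.62 (FDR 0.0385). The call against Tazemetostat was lost without Tat-4OI replicate 1 (-2.06, FDR 0.0663) or Tat-Tazemetostat replicate 2 (-1.95, FDR 0.1). The call against Senicapoc was lost without Tat-4OI replicate 1 (-1.53, FDR 0.226), Tat-Senicapoc replicate 2 (-1.91, FDR 0.128) or replicate 3 (-1.84, FDR 0.149). With cocaine Orm1 was at 73.9, 333 and 157 CPM in 4OI cultures and at 853, 1029 and 593 CPM with Tazemetostat, the highest level of any group. That difference, -2.35 ± 0.62 (FDR 0.00601), passed the test and was lost without Tat-Cocaine-4OI replicate 1 (-1.81, FDR 0.083). Those against Amlexanox, -1.65 ± 0.62 (FDR 0.0949), and Senicapoc, -1.50 ± 0.62 (FDR 0.118), missed it, and both passed without Tat-Cocaine-4OI replicate 2 (-2.20 and -2.04, FDR 0.0322 and 0.0389).

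Lcn2 libraries of 4OI cultures lay below those of the other compounds in all 6 comparisons, at 1467, 6461 and 3892 CPM with Tat and 3631, 8458 and 4966 CPM with Tat and cocaine. Over all genes, the share doing so ran from 12.7% (against Senicapoc with Tat) to 22.4% (against Tazemetostat with cocaine) in these comparisons. The differences for Lcn2 of -1.52 to -0.87 missed the threshold (FDR 0.184 at the lowest). With array weights in limma, those against Tat-Amlexanox, Tat-Senicapoc and Tat-Cocaine-Tazemetostat passed (FDR 0.0478, 0.0205 and 0.0244).

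Ptx3 was lower in Tat-4OI (30.3, 215 and 81.8 CPM) than in Tat-Tazemetostat cultures (251, 408 and 267 CPM), at -1.88 ± 0.62 (FDR 0.0356). This call was lost without Tat-4OI replicate 1 (-1.18, FDR 0.275) or 3 (-1.89, FDR 0.0918) and without Tat-Tazemetostat replicate 1 (-2.02, FDR 0.0505) or 2 (-1.66, FDR 0.208). Without Tat-4OI replicate 2 the Ptx3 differences from Amlexanox and Senicapoc passed as well (-2.02 and -2.09, FDR 0.0385 for both). With cocaine the Ptx3 difference from Tazemetostat was -1.37 ± 0.62 (FDR 0.101), and it passed with replicate number as a block (FDR 0.0445), in a pair of groups whose same-numbered libraries deviated together. It passed without Tat-Cocaine-4OI replicate 2 too (-1.82, FDR 0.0352). Cp was lower in Tat-4OI than in Tat-Amlexanox cultures, at 2099 ± 855 against 4722 ± 1296 CPM and a difference of -1.22 ± 0.36 (FDR 0.0202). It was lost without Tat-4OI replicate 1 (-0.87, FDR 0.166) and without Tat-Amlexanox replicate 1 (-1.04, FDR 0.130) or 2 (-1.17, FDR 0.0678). Against Tazemetostat Cp missed the threshold, at -0.83 ± 0.36 (FDR 0.1), and passed without Tat-4OI replicate 2 (-1.11, FDR 0.0447).

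**Figure D3:**
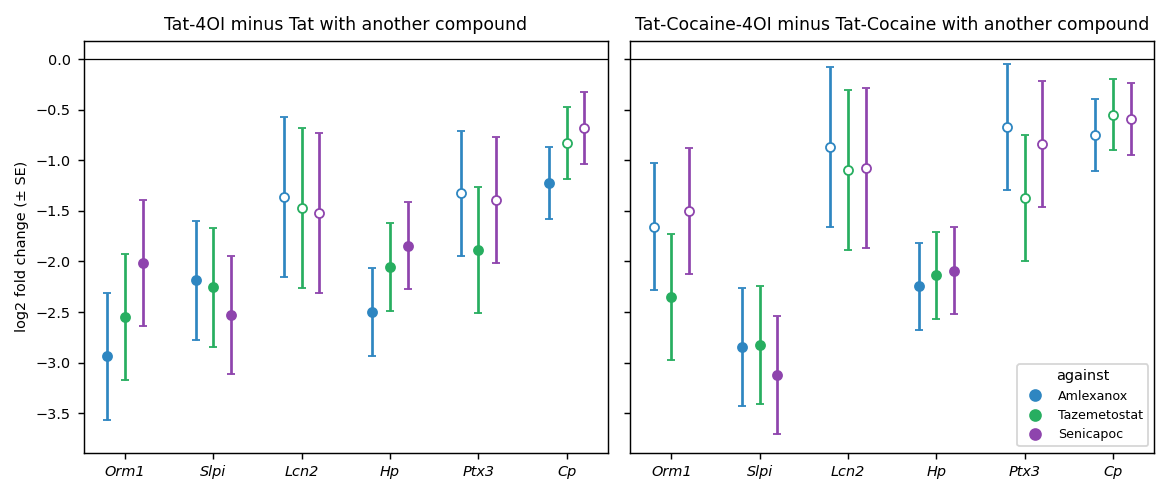
Log2 fold change ± SE of each gene in cultures given 4OI against those given Amlexanox, Tazemetostat or Senicapoc, with Tat (left) and with Tat and cocaine (right); filled points have FDR under 0.05 in limma. All 36 differences are below 0, from -3.12 for Slpi against Senicapoc with cocaine to -0.55 for Cp against Tazemetostat with cocaine, and the filled points are those of Slpi and Hp throughout and of Orm1 in 4 comparisons, with 1 each for Ptx3 and Cp.

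Tat and Tat-Cocaine cultures without a compound, and Control cultures, are the libraries that chose the genes, so the compounds are set beside them as values with no test. Genes chosen for being high in those Tat libraries and low in Control tend to look lower in any other group with Tat, and higher in any other group without it, by the choice alone. The mean level in Tat-4OI cultures was 13.9% of that with Tat alone for Orm1, 15.2% for Hp, 17.3% for Slpi, 33.99% for Lcn2, 34.9% for Ptx3 and 61.1% for Cp. The shares of Slpi and Ptx3 rest on Tat-4OI replicate 2, without which they were 4.92% and 17.9%. In Tat-Cocaine-4OI cultures the level was 10.5% of that with Tat-Cocaine for Slpi, 42.6% for Hp, 58.3% for Orm1, 67.6% for Ptx3, 74.9% for Lcn2 and 128% for Cp. Without Tat-Cocaine-4OI replicate 2 the shares were 6.68% for Slpi, 23.7% for Hp, 35.8% for Orm1 and 44.4% for Ptx3, and without Tat-Cocaine replicate 3 they were 85.4% for Hp, 129.9% for Orm1 and 210.1% for Cp.

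With Amlexanox, Tazemetostat or Senicapoc, levels ran from 49.7% (Slpi with Amlexanox) to 137% (Cp with Amlexanox) of those with Tat alone. The share of Orm1 with Tazemetostat, at 89.99%, rests on Tat-Tazemetostat replicate 2, without which it was 51.1%. They ran from 71.6% (Slpi with Tazemetostat) to 256% (Orm1 with Tazemetostat) of those with Tat-Cocaine, where the wide spread of the Tat-Cocaine libraries enters each share. That of Orm1 with Tazemetostat was 181% without Tat-Cocaine replicate 1 and 570.3% without replicate 3.

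The compounds alone differed from Control by -1.61 (Lcn2 with 4OI) to 2.14 (Ptx3 with Amlexanox) on the log2 scale. Ptx3 was at 23.8, 99.7 and 85.3 CPM in Amlexanox cultures against 11.4, 28.9 and 6.49 CPM in Control, and the groups overlapped. Orm1 was lowest of all groups in 4OI cultures, at 0, 0.216 and 0.0834 CPM, with a log2 difference from Control of -0.84. Cocaine alone differed from Control by -0.49 to 0.15 over the 6 genes.

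Cocaine added to Tat with each compound changed 0 of 24 in limma, where 0%, 0%, 0% and 0.183% of all genes passed with 4OI, Amlexanox, Tazemetostat and Senicapoc, and 5 of these and the 6 mean differences below had an unadjusted p under 0.05. By the stated times, cultures with Tat and cocaine ran 24 h longer than those with Tat. Cocaine and time therefore cannot be told apart in these differences. Of all genes, 4.41% passed upward in the mean difference with cocaine over the 4 compounds. That difference used libraries outside the comparisons that chose the genes. It was 0.84 ± 0.31 (FDR 0.0709) for Orm1, 0.52 ± 0.18 (FDR 0.0526) for Cp and 0.51 ± 0.22 (FDR 0.109) for Hp. None passed, but Orm1 and Cp lay near the threshold. With replicate number as a block both passed (FDR 0.0333 and 0.0338), and same-numbered libraries deviated together in 3 of the 4 pairs of groups. Orm1 also passed without Tat-Cocaine-4OI replicate 1 (0.98, FDR 0.0317) or Tat-Tazemetostat replicate 2 (0.99, FDR 0.0231), and Hp without Tat-Cocaine-4OI replicate 1 (0.62, FDR 0.0449). Cp passed without Tat-4OI replicate 2, Tat-Cocaine-4OI replicate 1, Tat-Amlexanox replicate 1, Tat-Tazemetostat replicate 2 or Tat-Senicapoc replicate 3 (0.56 to 0.61, FDR 0.0185 to 0.0396). For Slpi the mean difference was -0.06 ± 0.29 (FDR 0.899), for Lcn2 0.35 ± 0.40 (FDR 0.561) and for Ptx3 0.29 ± 0.31 (FDR 0.546). The 95% intervals were -0.66 to 0.53, -0.45 to 1.16 and -0.34 to 0.92.

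Orders of the group means differed between the genes. Orm1 was highest in Tat-Cocaine-Tazemetostat (825 ± 219 CPM), followed by Tat-Cocaine-Amlexanox, Tat, Tat-Amlexanox, Tat-Cocaine-Senicapoc and Tat-Tazemetostat, from 501 ± 88.8 down to 445 ± 343, within each other's SD. Slpi was highest in Tat (94.5 ± 32.1) and Tat-Cocaine (68.9 ± 31.2) cultures without a compound, and the next group, Tat-Cocaine-Senicapoc (60.8 ± 11.7), was again within the SD of its neighbour. Tat-4OI and Tat-Cocaine-4OI were the lowest groups with Tat for Orm1, Slpi, Lcn2, Hp and Ptx3, and for Cp the lowest was Tat-4OI. Their means were 68.6 ± 34.4 and 188 ± 132 CPM for Orm1, 16.3 ± 20.3 and 7.23 ± 4.56 for Slpi, and 3939.8 ± 2497 and 5685 ± 2492 for Lcn2, with SDs that overlap within each gene. Over the 16 group means the 6 genes followed each other with Pearson's r of 0.899 to 0.989 on the log2 scale. Over the 10 groups with Tat r ran from 0.304 (Slpi and Cp) to 0.947. The groups share a design in which Tat is present or absent, and the coefficients are descriptions.

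Among 12783 genes searched, those with the most similar pattern over the 16 group means were Sod2 (mitochondrial superoxide dismutase, r = 0.995), Pla2r1 (0.994) and the chemokine gene Cxcl6 (0.993) for Orm1. For Slpi they were Cd74 (0.986), Frzb (0.985) and the interleukin 1 receptor antagonist Il1rn (0.985), and for Lcn2 the NF-κB targets Birc3 (0.990) and Bcl3 (0.989) and again Sod2 (0.989). Closest to Hp were Irak3 (0.987), Man1a1 (0.986) and Asap3 (0.985). For Ptx3 they were the chemokine gene Ccl2 (0.979), Gda (0.979) and LOC299282 (0.977). For Cp they were the chemokine gene Cxcl12 (0.990), Ca13 (0.984) and Susd6 (0.983).

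Other genes of the acute-phase and defence systems were then taken from lists that name no member. Of 35 other acute-phase genes 30 were in the table and 20 were tested, and adding Tat raised 7 of them with 4OI, 11 with Amlexanox, 11 with Tazemetostat and 11 with Senicapoc, and lowered 0, where 3.08%, 22.6%, 10.4% and 10.8% of all genes rose. Their median log2 fold changes were 0.79, 0.94, 1.202 and 0.95, where those of all genes lay between -0.0047 and 0.022. Complement factor B (Cfb) rose by 4.51 to 5.94 over the 4 compounds, the metalloreductase Steap4 by 3.83 to 5.86 and Il1rn by 2.89 to 5.16. Serping1 (C1 inhibitor), C3 and Tf (transferrin) rose with each compound too. Hpx (hemopexin, which binds free haem) rose with 3 compounds, as Hp did, and was at 0.92 ± 0.44 (FDR 0.243) with 4OI. The fibrinogen gene Fga, A2m, Alb and Ttr did not pass in any of the 4, with changes of -0.42 to -0.15, -0.15 to 0.88, 0.03 to 0.27 and -0.40 to 0.22.

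Of 20 other secreted defence genes 8 were tested, of which 3, 6, 7 and 6 rose with Tat in 4OI, Amlexanox, Tazemetostat and Senicapoc cultures, against the same 3.08%, 22.6%, 10.4% and 10.8% of all genes. Lysozyme (Lyz2, 2.24 to 3.55), the chitinase-like Chi3l1 (2.60 to 4.32) and S100a8 (1.30 to 3.20) rose with all 4. Of the genes tested in both lists, 4OI cultures with Tat had lower levels of 9, 7 and 6 acute-phase and of 4, 4 and 3 defence genes than those with Amlexanox, Tazemetostat and Senicapoc, where 6.82%, 9.72% and 4.15% of all genes were lower. With cocaine the counts were 2, 9 and 4 acute-phase and 3, 7 and 4 defence genes, against 4.97%, 13.9% and 7.77% of all genes. Steap4 was lower in all 6 comparisons with and without cocaine, at -3.87 ± 0.78 (FDR 0.00104) against Amlexanox with Tat. The metallothionein Mt1 was lower in all 6 as well, although adding Tat changed it in none of the 4 compounds.

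Among 14 inducers and factors of the acute-phase response, 13 were tested and 6, 10, 9 and 7 rose with Tat in the same order of compounds, where 3.08%, 22.6%, 10.4% and 10.8% of all genes did. Il1b (interleukin 1 beta) rose by 1.75 to 4.10, Osmr (the oncostatin M receptor) by 1.74 to 2.85, Stat3 by 0.54 to 0.91, its feedback inhibitor Socs3 by 1.07 to 1.65 and Nfkbiz, a cofactor of NF-κB at the Lcn2 gene, by 2.45 to 3.37, each with all 4 compounds. Il6 passed only with Amlexanox, at 1.45 ± 0.52 (FDR 0.0265), and Tnf reached at most 0.0819 CPM. In Tat cultures 7, 8 and 2 of the 13 were lower with 4OI than with Amlexanox, Tazemetostat and Senicapoc, against 6.82%, 9.72% and 4.15% of all genes. Nfkbiz was lower in all 3, at -1.28 ± 0.31 (FDR 0.00619), -1.59 ± 0.31 (FDR 0.000821) and -1.26 ± 0.31 (FDR 0.0082), and Stat3 in none, at -0.19 ± 0.15 (FDR 0.393) against Amlexanox. With cocaine, 2, 8 and 3 of the 13 were lower with 4OI, against 4.97%, 13.9% and 7.77% of all genes.

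Of 7 known receptors and partners of the 6 proteins, 4 were tested. Slc22a17, a lipocalin-2 receptor, was at -0.46 to -0.21 with Tat over the 4 compounds and passed in none, and Lrp2 (megalin), another receptor, rose with Amlexanox (1.62 ± 0.35, FDR 0.00103). Cd163, the receptor for haptoglobin bound to haemoglobin, fell with Tat in 3 of the 4, at -3.65 ± 0.62 (FDR 0.000322) with 4OI. Tnfaip6, which binds Ptx3 in the hyaluronan matrix, rose with all 4 (1.33 to 1.57). Of the proteases that Slpi inhibits, Elane reached at most 0.0487 CPM and Ctsg was at 0 in all 48 libraries. Slc40a1 (ferroportin), the iron exporter that works with ceruloplasmin, reached at most 0.0806 CPM.

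**Figure D4:**
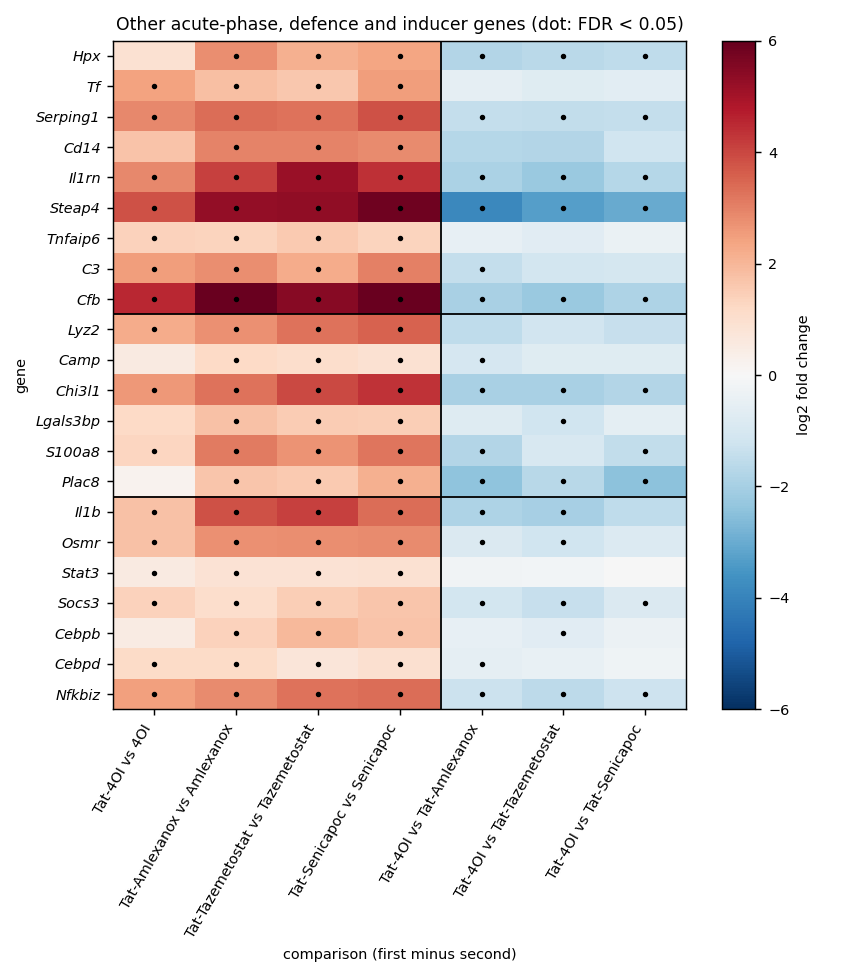
Log2 fold change (colour, from lower in blue to higher in red) of the 22 listed genes called higher with Tat in at least 3 of the 4 compounds, in 7 comparisons: Tat added to each compound, and Tat-4OI against Tat with each other compound; dots mark FDR under 0.05 in limma. Cfb has the highest values among the Tat columns, up to 5.94 with Amlexanox, and Steap4 the lowest among the 4OI columns, down to -3.87.

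Markers of macrophage-lineage cells were compared between 4OI and the other compounds as well, and their part in the results was not tested. The 3 markers of border macrophages, Mrc1, Cd163 and Lyve1, were lower with 4OI than with each other compound in all 6 comparisons, with log2 differences of -1.61 to -4.94. Their summed level was 39.2 to 180.3 CPM in Tat-4OI and 30 to 145 CPM in Tat-Cocaine-4OI cultures, where it was 247 to 291 CPM in cultures with 4OI alone and 196 to 289 CPM in Tat cultures. Of 9 microglial markers 1, 5 and 1 were lower in Tat-4OI than in Tat-Amlexanox, Tat-Tazemetostat and Tat-Senicapoc cultures, and 1, 9 and 6 with cocaine, where the shares of all genes were 6.82%, 9.72% and 4.15%, and 4.97%, 13.9% and 7.77% with cocaine. Csf1r was lower in all 6, and it was the marker lower against Amlexanox. The summed microglial level was 498 to 1045 CPM in Tat-4OI and 355 to 1070.3 CPM in Tat-Cocaine-4OI cultures, against 1040.0 to 1436 CPM in Tat-Amlexanox and 1287 to 2879 CPM in Tat-Tazemetostat cultures. The group with Tat and the highest mean microglial sum, Tat-Cocaine-Tazemetostat at 1758 to 2830.1 CPM, also had the highest Orm1 and Ptx3. Slpi, Lcn2, Hp and Cp were highest in other groups. Among the 16 groups Tat-Cocaine-Tazemetostat was at place 2 for Lcn2, at 11424 ± 685 CPM against 11592 ± 2742 CPM in Tat cultures. It was at place 2 for Hp too, at 14.5 ± 2.01 CPM against 16.2 ± 5.48 CPM in Tat-Cocaine-Amlexanox cultures. For Cp it was at place 3 and for Slpi at place 6. Orm1 was at 445 ± 343 CPM in Tat-Tazemetostat and 501 ± 88.8 CPM in Tat-Cocaine-Amlexanox cultures. The microglial sum of the latter was 1062 to 1410 CPM.

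The markers did not move alike when Tat was added. Of the 9 microglial markers, 0, 4, 2 and 4 rose in 4OI, Amlexanox, Tazemetostat and Senicapoc cultures, with medians of 0.36, 0.82, 0.75 and 1.47, and 0, 1, 1 and 0 fell. Of all genes 3.08%, 22.6%, 10.4% and 10.8% rose in these comparisons and 2.10%, 17%, 5.63% and 5.15% fell. Of the 7 astrocyte markers 0, 2, 0 and 0 rose and 2, 0, 3 and 1 fell. Astrocyte markers summed to 8587 to 10173 CPM in Tat-4OI and 8880.4 to 9892 CPM in Tat-Amlexanox cultures, ranges that overlap. Slc1a2 alone of the 7 was higher with 4OI than with Amlexanox there (0.88 ± 0.20, FDR 0.00418). The sum was 7170 to 9453 CPM in Tat-Senicapoc and 6459 to 8552 CPM in Tat-Tazemetostat cultures, the latter below each Tat-4OI library. With cocaine it was 8591 to 13073 CPM with 4OI and 5837 to 8528 CPM with Tazemetostat, which did not overlap. It was 8969 to 9644 CPM with Amlexanox and 8251 to 9618 CPM with Senicapoc, which overlapped 4OI. The part of astrocytes in the results was not tested. Of the 6 neuronal markers 4 fell when Tat was added to Amlexanox, the comparison with the most genes called, and 0 with each other compound. The neutrophil marker Camp, which codes for a cathelicidin, was higher with Tat in Amlexanox (1.21 ± 0.27, FDR 0.00108), Tazemetostat (1.05 ± 0.27, FDR 0.0059) and Senicapoc cultures (0.91 ± 0.27, FDR 0.0168), and lower in Tat-4OI than in Tat-Amlexanox cultures (-1.02 ± 0.27, FDR 0.0101). It was the only 1 of 5 neutrophil markers with enough reads to be tested. Their summed level was 0.0862 to 0.147 CPM in 4OI, 0.161 to 0.645 CPM in Tat-4OI and 1.00 to 1.39 CPM in Tat-Amlexanox cultures, and its part in the results was not tested.

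**Figure D5:**
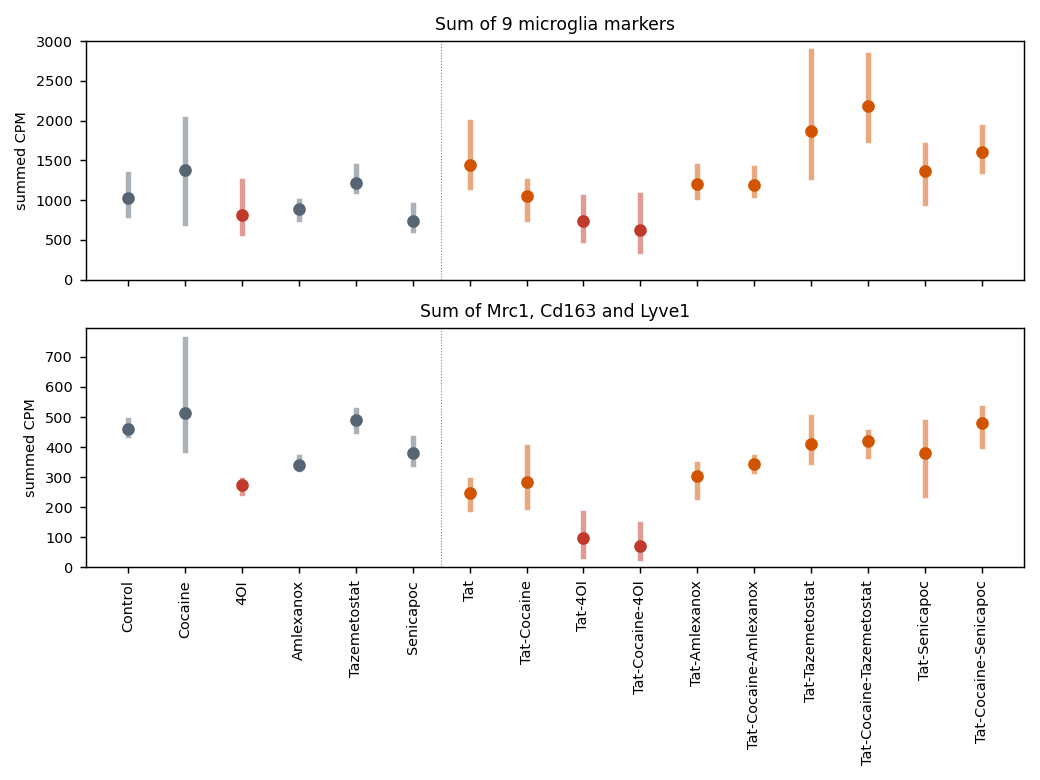
Summed CPM of 9 microglial markers (top) and of the border macrophage markers Mrc1, Cd163 and Lyve1 (bottom) in the 16 groups. Lines span the lowest and highest of 3 libraries and points are means. The border macrophage sum is lowest in Tat-Cocaine-4OI and Tat-4OI cultures, at most 144.9 and 180.3 CPM, and the microglial sum is highest in Tat-Cocaine-Tazemetostat cultures on average.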

How the data were processed

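RNA-seq libraries of 48 rat cortical cultures were analysed, in 16 groups of 3 taken from the labels. Per the labels and the study's methods, the authors trimmed reads with Trim Galore 0.4.5, aligned them with STAR and counted them with featureCounts of Subread 1.5.3. The sources name more than 1 genome build, so no positions were taken from the table. The authors deposited a signal in CPM, scaled by TMM in edgeR. Depth was read from the step of low values, but 85.0 to 87.3% of values came out as whole reads (tolerance 0.02 reads), too few for a count test. The floor of 3 reads was 0.100 to 0.175 CPM and covers counting error alone. Replicate correlations were 0.987 to 0.999, and 0 libraries were identical.

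Log2(CPM + 0.5) values of the 15890 genes that reached 0.5 CPM in 3 or more libraries were fitted in limma 3.58.1 (R 4.3.3, lmFit and eBayes with a trend) over all 48 libraries, with 1 mean per group and no block. P-values were adjusted over all genes of a comparison. Comparisons in which Control, Tat or Tat-Cocaine libraries take part had been planned with a test and are given as values, since those libraries chose the genes. The procedure was tested on simulated data.

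The members and the gene lists were chosen with earlier results of these data known. Listed genes were named where called in at least 3 of the 4 comparisons of Tat added to a compound, partners in any case, and the 3 most similar genes of each member by Pearson's r among genes reaching a group mean of 5 CPM. In the lists, 1 gene is not reported here. Fga, A2m, Alb, Ttr, Mt1, Il6, Tnf and the single marker genes were named after their values were seen. Promoters came from RefSeq (GRCr8), where 4 of the 6 genes matched. Alternatives were other pseudocounts, filters, scalings, variance models, a replicate block, the compared groups alone and leaving out each library. Pairing by replicate number was checked from the correlation of deviations from group means: in 13 of 40 comparisons all 3 pairs had a correlation over 0.1, among them Tat-Cocaine-4OI with Tat-Cocaine-Tazemetostat and cocaine added to 3 of the 4 compounds with Tat. The labels say nothing of a shared batch.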

Additional observations from a re-analysis of the deposited data

Results flagged for a closer look

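The rise of Hp with Tat was smaller in cultures given 4OI than in those given Amlexanox, a difference between compounds under the same contrast that passed its own test with all libraries. The difference of the log2 fold changes was -2.07 ± 0.61 (FDR 0.0322 in limma). The call was lost without a filter (FDR 0.0502) and in 8 of the cases in which 1 library was left out (FDR up to 0.11). Hp went from 0.736, 0.647 and 0.917 CPM with 4OI to 1.39, 2.58 and 1.90 CPM with Tat-4OI, and from 1.13, 1.24 and 1.22 CPM with Amlexanox to 13.2, 12.7 and 13.4 CPM with Tat-Amlexanox. The 3 Tat-Amlexanox libraries all lay above the 3 Tat-4OI libraries.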

How the results depend on the processing

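With no library left out, the Tat response had 23 of 24 calls under each alternative but array weights (24, Hp with 4OI added), and with cocaine 24 of 24 under each but fits to the compared groups alone (23, without Hp in Tat-Cocaine-4OI). Fits to the compared groups alone gave 2 calls of 30 for cocaine and 11 of 72 for compounds compared in Tat cultures, where 0 and 18 were reported. Array weights gave 5 and 32 in the same order, and 10 of 36 for Tat responses compared, where 1 was reported and no filter gave 0. A minimum of 2 CPM gave 1 call for cocaine. The causes were not tested. Leaving out 1 library gave 21 to 23 calls for Tat, 23 to 24 for Tat with cocaine, 0 to 3 for cocaine, 11 to 21 for compounds compared and 0 to 1 for Tat responses compared. The lowest value for compounds compared was without Tat-4OI replicate 1. With pseudocount 0.1 the calls of Slpi in Tat-4OI against Tat-Amlexanox and Tat-Tazemetostat and of Orm1 against Tat-Senicapoc were lost (FDR 0.0669, 0.0552 and 0.0798). Without a filter those of Orm1 against Tat-Senicapoc (0.0573) and Ptx3 against Tat-Tazemetostat (0.0549) were lost. Median ratio rescaling, quantile normalization, a pseudocount of 1 and a fit without trend changed no call.

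With replicate number as a block, the calls were 23, 24, 2, 20 and 1 for Tat, Tat with cocaine, cocaine, compounds compared and Tat responses compared. In comparisons whose numbers did not pair the samples, it added Orm1 in Tat-Cocaine-4OI against Tat-Cocaine-Amlexanox (FDR 0.0404). Beside this and the 3 gained calls given in the report (Orm1 and Cp for cocaine, Ptx3 for Tat-Cocaine-4OI against Tat-Cocaine-Tazemetostat), the block changed no call. Count tests on recovered reads were not run, since too few values came out whole. Depth limited Slpi in cultures without Tat, where 9 of 18 libraries held under 3 reads, and Orm1 in 2 of the 18.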
